A study of Caenorhabditis elegans with 8 samples.

Results

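Cytochrome P450 genes of Caenorhabditis elegans other than the cyp-35 family were followed in whole-worm RNA-seq. Members were all genes whose WormBase symbol begins with cyp- but not with cyp-35. That gave 69 genes of the 46739 identifiers counted, among 80 cyp genes in all. Of the 69, 64 are annotated as protein-coding and 5 as pseudogenes. All 8 libraries came from 1 strain, labelled a neuronal DAF-15 AID worm, in which an auxin-inducible degron marks DAF-15, the worm Raptor subunit of the TORC1 kinase, for destruction in neurons. The sources used here name neither the promoter that restricts this to neurons nor the dose. Worms were given ethanol, the carrier control, or 5-Ph-IAA, an auxin analog, at the L4 larval stage for 24 h, and day 1 adults were collected (4 libraries each). The question for the P450 genes was which of them the adult worm transcribes, how strongly, and whether 5-Ph-IAA changed any. Every worm carried the degron, so the compound itself and the loss of neuronal DAF-15 cannot be told apart.

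Cytochrome P450 enzymes hold a heme and insert an oxygen atom into their substrates, taking electrons from a reductase partner. In nematodes as in mammals they make signalling lipids and steroid hormones and modify foreign compounds, and many of their genes stand in tandem runs that arose by duplication. Members were grouped by the number in their symbol, under labels after mammalian families. Their resemblance to those families was not computed. There were 32 CYP2-like genes (cyp-14, cyp-33 and cyp-34) and 21 CYP3-like genes (cyp-13, cyp-25 and cyp-43). A further 13 were CYP4-like genes (cyp-29, cyp-31, cyp-32, cyp-37 and cyp-42). The 3 others (cyp-23A1, cyp-36A1 and cyp-44A1) are those left over, not a family of their own. The P450 that makes the dafachronic acid hormones, DAF-9, carries no cyp symbol and is treated with the partner genes.

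Reads counted in genes numbered 7354710 to 10893322 by library, of which 0.0563% to 0.0613% fell in members. Marker genes of intestine, epidermis, germ line, oocytes, neurons, muscle and pharynx were present, as in whole worms. Neuronal markers summed to 201 to 223 CPM by library (CPM is counts scaled to the library's TMM-adjusted total over tested genes), and intestinal markers to 17540 to 23560 CPM. The 4 sperm markers together reached 0.345 to 2.88 CPM. In edgeR 0 of the tested markers of any tissue passed an adjusted p of 0.05, where 0.0998% of all tested genes passed. Markers with an unadjusted p under 0.05 numbered 2, where 4.41% of all tested genes had one. They were 1 of 6 tested intestinal markers (elt-7, 5.03 CPM with ethanol and 3.68 with 5-Ph-IAA) and 1 of 5 tested neuronal markers (rab-3, 10.1 and 7.51 CPM). Of those 6 and 5 markers, 3 and 1 were higher with 5-Ph-IAA. In RNA of whole worms, fewer cells of a type and less RNA per cell cannot be told apart.

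A few members carried most of the family's RNA. Levels between genes are given as CPM per kilobase of exon, as mean ± SD over all 8 libraries. The highest was cyp-31A2 (WBGene00010354, chromosome IV: 11403961 to 11406091) at 69.1 ± 1.79 CPM per kilobase. Its relatives cyp-31A3 (IV: 4761049 to 4762885) and cyp-31A5 (IV: 13401289 to 13403842) followed at 46.4 ± 3.52 and 42.8 ± 2.39. CYP-31A2 and CYP-31A3 act with the reductase EMB-8 in making the lipid barrier of the eggshell. The fourth was cyp-44A1 (II: 5504044 to 5505975), the mitochondrial-type P450 of the worm, at 36.5 ± 2.06 CPM per kilobase. These 4 genes held 52.8% of the summed level per kilobase of all 69 members, and the highest 10 held 75.3%. For scale, the median of 11962 tested genes with a known length was 17.1 CPM per kilobase, and 6 of the 69 members stood above it. The other 2 above the median were cyp-14A5 (V: 5421018 to 5423282) at 24.3 ± 2.97 and cyp-34A8 (V: 3964797 to 3967823) at 17.9 ± 1.58, both CYP2-like.

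The remaining 4 of the highest 10 were cyp-25A2 (12.3 ± 2.47 CPM per kilobase), cyp-37A1 (10.98 ± 1.29), cyp-43A1 (9.02 ± 1.17) and cyp-25A1 (8.57 ± 1.20). The order was firm only at the top. Of the 37 neighbouring pairs among the tested members, 6 had the upper gene higher in 8 of 8 libraries and 2 had ranges over the libraries that did not overlap. Those 2 gaps lay between cyp-31A2 and cyp-31A3 and between cyp-44A1 and cyp-14A5. The order of cyp-31A3 and cyp-31A5 held in 7 of 8 libraries, and that of cyp-43A1 and cyp-25A1 in 5 of 8. From the eleventh place down the upper gene of a pair was higher in 2 to 7 libraries, so that ranks there are not separated. The cyp-31A genes are close paralogs, so their separate levels are uncertain where reads could not be placed on 1 copy.

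**Figure D1:**
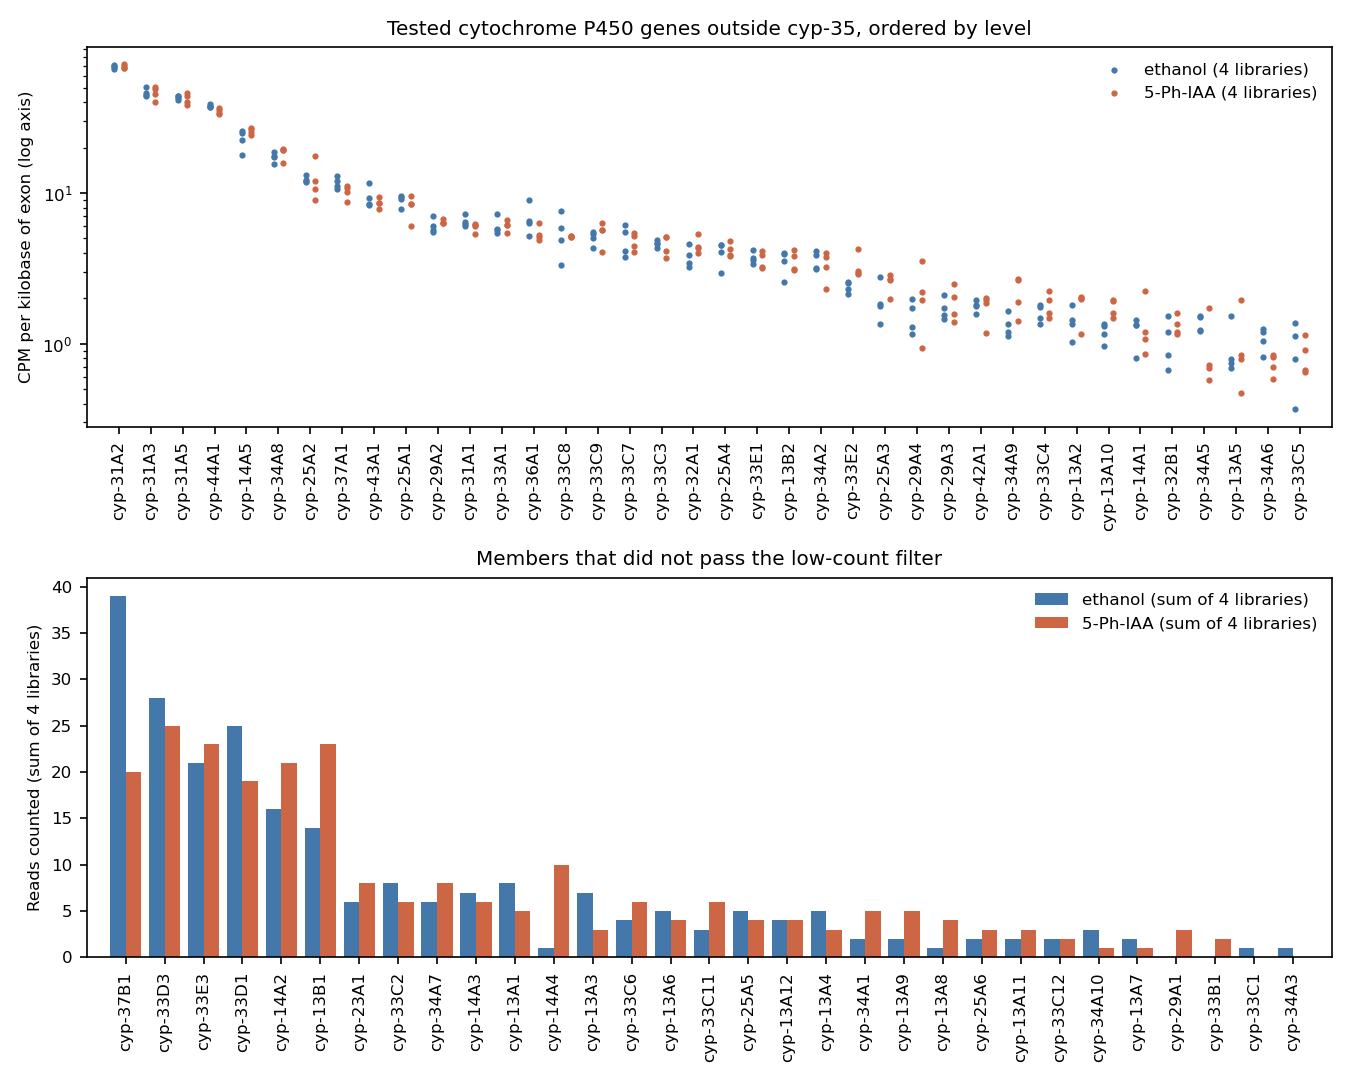
Upper panel: level of each tested member in each library, in CPM per kilobase of exon on a log axis, with ethanol in blue and 5-Ph-IAA in orange. Lower panel: reads of the 31 members that did not pass the low-count filter, summed over the 4 libraries of each group. Levels run from 69.1 CPM per kilobase on average for cyp-31A2 to 0.878 for cyp-33C5, and the points of both groups lie together for most genes.

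Much of the family was close to silent. Of the 69 members, 38 passed the low-count filter (edgeR's filterByExpr) and 31 did not, with totals over 8 libraries of at least 95 reads for the former and at most 59 for the latter. Every member had at least 1 read, and 17 had fewer than 10 reads in all libraries together. Among these scarce genes were several known for induction. The gene cyp-13A12, which acts in the response to reoxygenation downstream of EGL-9 and HIF-1, had 4 reads with ethanol and 4 with 5-Ph-IAA. The gene cyp-13A7, reported as inducible by rifampicin, had 2 and 1, and cyp-14A3, reported as inducible by xenobiotics, had 7 and 6. The counts were 6 and 8 for cyp-23A1 and 39 and 20 for cyp-37B1, which reached 0.413, 1.5, 0.507 and 1.77 CPM in ethanol replicates 1 to 4 and 0.708, 0.254, 0.393 and 0.878 CPM in 5-Ph-IAA replicates 1 to 4. These values overlapped between groups.

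Fitted without the filter, 0 of the 31 passed an adjusted p of 0.05 in edgeR against 0.265% of 23362 genes in that fit. At an unadjusted p under 0.05 there was 1 of the 31, against 4.31% of all genes. That gene, cyp-14A4, had 1 read in 4 ethanol libraries and 10 in 4 5-Ph-IAA libraries (unadjusted p = 0.0374) and was chosen after its values were seen. Of the pseudogenes, cyp-13A9, cyp-25A5, cyp-29A1 and cyp-34A3 had 7, 9, 3 and 1 reads. The fifth, cyp-31A1 (IV: 9101773 to 9103851), had 599 reads and stood at 6.22 ± 0.524 CPM per kilobase, in twelfth place of the 69. It resembles the abundant cyp-31A genes, and whether its reads came from it was not tested.

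Members that lie side by side differed widely in level. Joining cyp genes less than 10 kb apart put 37 members into 10 runs, of which 17 passed the low-count filter, against 21 of the 32 members that stand alone. The median level was 0.345 CPM per kilobase in runs and 3.60 outside them. Reads with several alignments were not counted, so levels of similar neighbours are uncertain, and the part of this in the difference was not tested. The run with most genes (V: 3936326 to 3972991, 36.7 kb) holds 4 cyp-35 genes followed by cyp-34A5 to cyp-34A10. In it cyp-34A8 reached 17.9 CPM per kilobase while its neighbours cyp-34A7 and cyp-34A9 stood at 0.118 and 1.74, and cyp-34A10, with 4 reads in all and 0 in 5 of 8 libraries, at 0.0395. The run of 9 cyp-13A genes on chromosome II (9779181 to 9807569) had 2 genes above the filter, cyp-13A2 at 1.60 and cyp-13A5 at 0.974 CPM per kilobase, and the other 7 at 0.0279 to 0.0979. In the run of 3 cyp-25A genes on chromosome III (3832591 to 3839735) all passed, with cyp-25A3 the lowest at 2.25.

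**Figure D2:**
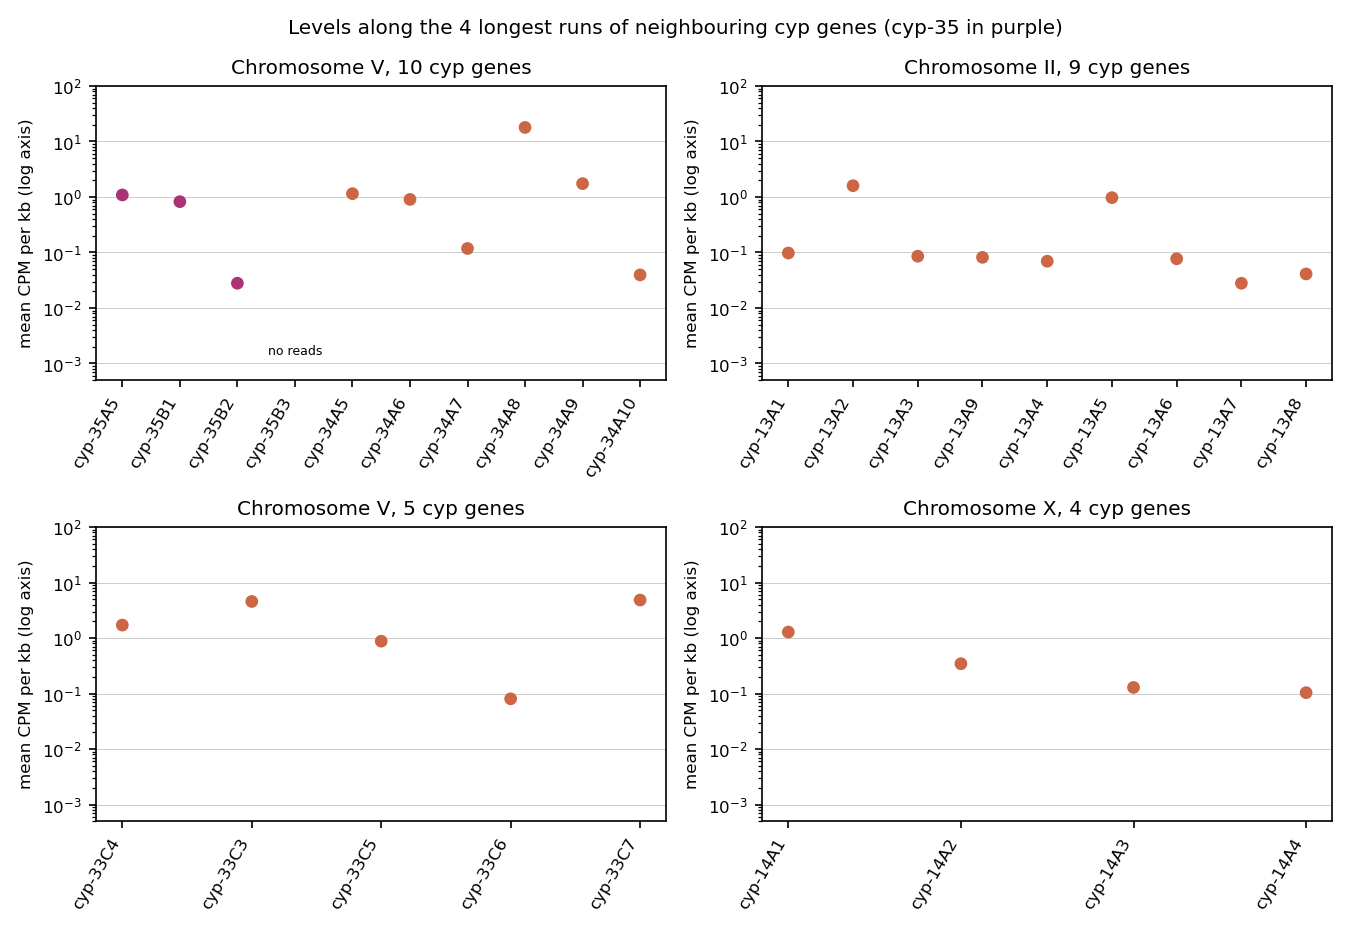
Mean level over 8 libraries, in CPM per kilobase of exon on a log axis, along the 4 runs with most cyp genes, in chromosomal order; cyp-35 genes are purple and cyp-35B3 had no reads. In the first panel cyp-34A8 stands at 17.9 between neighbours at 0.118 and 1.74.

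The cyp-34A genes also share an annotated feature that their symbol does not define. In 8 of the 9 cyp-34A genes, pseudogene included, a short RNA gene of 95 to 106 bases, annotated as snRNA (or snoRNA in cyp-34A8), lies on the opposite strand and overlaps an exon by 89 or 90 bases. The exon was the fourth in 7 of them and the third in cyp-34A8. Such an overlap was annotated for 19 of 19985 protein-coding genes (0.095%). That count includes the protein-coding cyp-34A genes with the overlap, but not the pseudogene. The one cyp-34A gene without it was cyp-34A10. Reads counted for the short RNA in the exon of cyp-34A8 numbered 534, beside 1969 for cyp-34A8. The same pair of counts was 79 and 419 for cyp-34A2, 48 and 207 for cyp-34A9, 23 and 106 for cyp-34A6 and 14 and 129 for cyp-34A5. The strand setting of the counting was not stated, so reads of the short RNAs and of the P450 genes cannot be told apart with certainty.

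No member passed the test for a change with 5-Ph-IAA. In edgeR's quasi-likelihood test with adjustment over 12021 tested genes, 0 of the 38 tested members passed an adjusted p of 0.05 (0.999 for each), where 0.0998% of all tested genes passed. With the replicate number as a block the count was again 0 (lowest adjusted p 0.486), where 0.732% of all genes passed, and it was 0 with DESeq2 and limma-voom. At an unadjusted p under 0.05 there were 2 members, both higher with 5-Ph-IAA, or 5.26% against 4.41% of all tested genes. With the block there were 4, or 10.5% against 6.91%. Of the 38, 21 had a log2 fold change above 0 (55.3%, against 49.7% of all tested genes) and the median was 0.0093, against -0.00094 over all tested genes. Folds ran from 0.684 to 1.60.

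The reads of all members together averaged 587.6 ± 16.6 CPM in the ethanol group and 588.5 ± 10.8 CPM in the 5-Ph-IAA group (SD, n = 4). They stood at 580, 587, 611 and 572 CPM in ethanol replicates 1 to 4 and at 602, 589, 575 and 588 CPM in 5-Ph-IAA replicates 1 to 4. For this sum the groups overlapped. Split by these symbol groups, the CYP4-like genes summed to 303.3 ± 6.22 CPM with ethanol and 302 ± 8.96 CPM under 5-Ph-IAA. They made up 51.5% of the members' reads. The CYP2-like genes summed to 138.5 ± 8.32 and 147.1 ± 6.82 CPM, and the CYP3-like genes to 74.8 ± 2.67 and 75.6 ± 7.68 CPM. The 3 other genes (cyp-23A1, cyp-36A1 and cyp-44A1) summed to 70.9 ± 2.23 CPM with ethanol (69.5 to 74.2) and 63.9 ± 2.68 CPM under 5-Ph-IAA (61.2 to 66.4). Theirs was the one of these 4 sums whose groups did not overlap, and most of it was cyp-44A1. Both of their tested genes lay below 0, and neither passed. Log2 fold changes lay above 0 for 8 of 16 tested CYP2-like genes, 7 of 9 CYP3-like genes and 6 of 11 CYP4-like genes, with medians of 0.0092, 0.038 and 0.0028. The 5 tested genes of the cyp-35 family, by comparison, had a median log2 fold change of 0.81, with 1 past the threshold without the block and 4 with it.

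**Figure D3:**
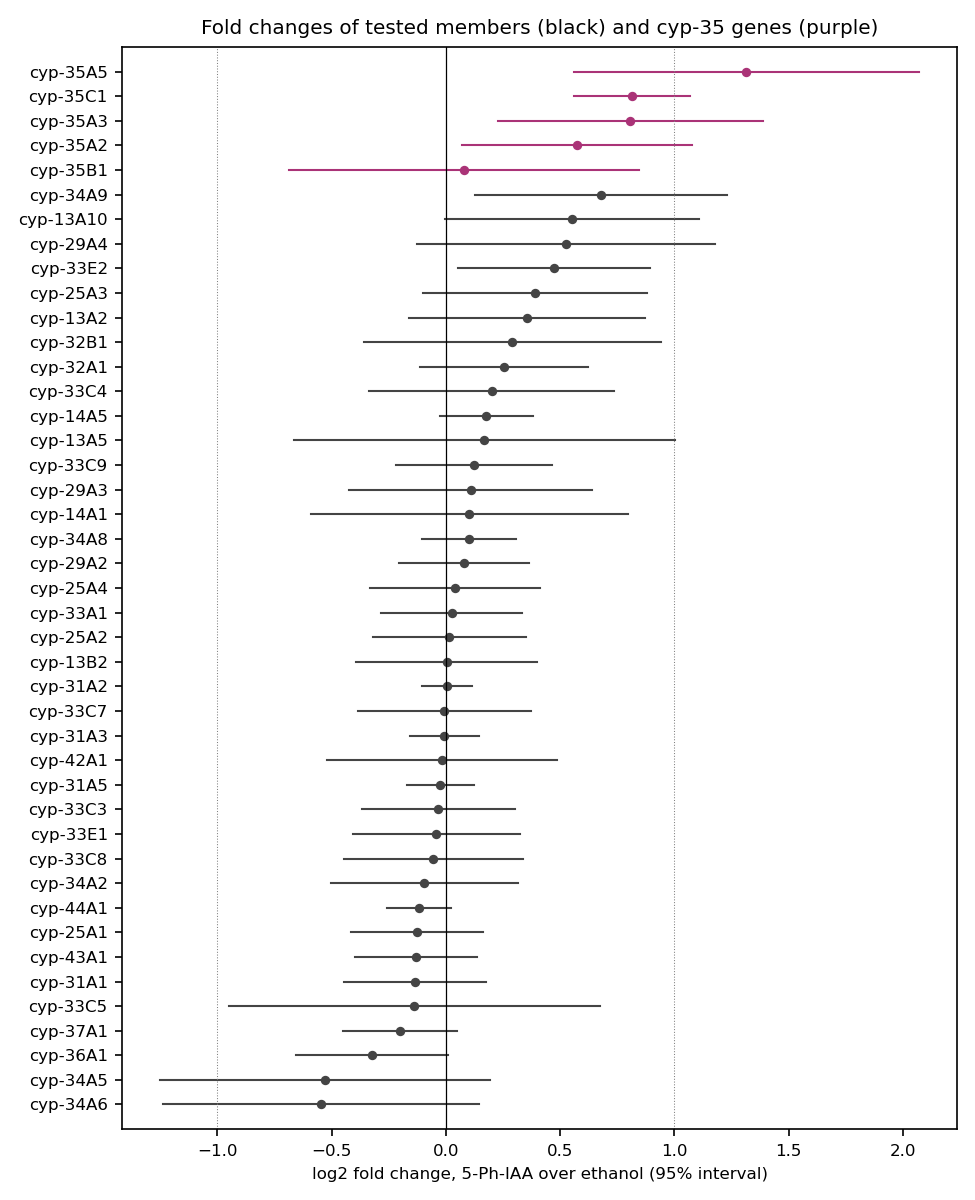
Log2 fold change of 5-Ph-IAA over ethanol with its 95% interval for the 38 tested members (black) and 5 tested cyp-35 genes (purple); dotted lines mark a 2-fold difference either way. All members lie between -0.55 and 0.68, and those with few reads have the widest intervals.

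For the abundant members the 95% intervals of the fold were narrow. Whether libraries are separate cultures is not stated, so these intervals may cover technical spread only. The level of cyp-31A2 was 115, 114, 113 and 109 CPM in ethanol replicates 1 to 4 and 114, 117, 110 and 110 CPM in 5-Ph-IAA replicates 1 to 4. The groups coincided, and the 1.00-fold difference had a 95% interval of 0.929 to 1.08. The eggshell partner cyp-31A3 averaged 74.2 ± 4.47 and 73.9 ± 7.32 CPM (interval of the fold 0.897 to 1.10), and cyp-31A5 60.4 ± 1.47 and 59.3 ± 4.82 CPM (0.888 to 1.09). Of the 38 tested members, 22 had an interval within 1.5-fold either way and 32 within 2-fold. The 6 with wider intervals each had at most 218 reads in all.

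The mitochondrial-type gene cyp-44A1 was slightly lower in each pair. It stood at 61.0, 58.1, 58.5 and 58.2 CPM with ethanol and at 57.4, 52.4, 51.8 and 55.3 CPM under 5-Ph-IAA, in replicate order. The groups did not overlap, yet the fold of 0.921 (interval 0.835 to 1.02, log2 -0.12, SE 0.069, edgeR adjusted p = 0.999) did not pass. Groups were separate for 3 of the 38 tested members, or 7.89%, against 2.65% of all tested genes, and the other 2 were cyp-33E2 and cyp-13A10, both higher with 5-Ph-IAA.

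With all libraries in the fit, the largest fold belonged to cyp-34A9 (V: 3968134 to 3970540), also known as dod-16 for lying downstream of DAF-16. Its level was 1.93, 2.30, 2.03 and 2.80 CPM with ethanol and 3.24, 2.42, 4.59 and 4.50 CPM under 5-Ph-IAA. The groups overlapped through 5-Ph-IAA replicate 2, although every pair was higher. The log2 fold change was 0.68 (SE 0.268, unadjusted p = 0.0180, edgeR adjusted p = 0.999). In the same run of genes, cyp-34A6 went from 1.85 ± 0.341 to 1.27 ± 0.197 CPM (log2 -0.55, SE 0.335) and was lower in 4 of 4 pairs, and cyp-34A5 went from 2.18 ± 0.275 to 1.47 ± 0.845 CPM (log2 -0.53, SE 0.350) and was lower in 3 of 4. Neither passed. The decrease of cyp-34A5 was made smaller by 5-Ph-IAA replicate 1, which stood at 2.73 CPM against 0.917 to 1.14 CPM in the other 3. Without that library its log2 fold change was -1.04, larger in size than the 0.74 of cyp-34A9 in the same fit. The neighbour cyp-34A8, with many more reads, had a fold of 1.07 (interval 0.930 to 1.24). Fitted values of these paralogs are uncertain where reads matched several copies.

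The other member with an unadjusted p under 0.05 was a gene of fatty acid epoxidation. CYP-33E2 and CYP-29A3 turn eicosapentaenoic acid into epoxides and hydroxylated products, and CYP-33E2 is active in the pharynx. Levels of cyp-33E2 (IV: 8612334 to 8614698) were 3.72, 4.37, 4.44 and 4.01 CPM with ethanol and 5.26, 5.09, 5.11 and 7.46 CPM under 5-Ph-IAA. Each 5-Ph-IAA library exceeded each ethanol library (log2 0.47, SE 0.203, unadjusted p = 0.0283, edgeR adjusted p = 0.999). The 3 pharynx markers beside it summed to 39.2 to 64.3 CPM with ethanol and 52.4 to 79.5 CPM under 5-Ph-IAA, and their part in this difference was not tested. The other epoxide-forming gene, cyp-29A3, stood at 2.99 ± 0.505 and 3.25 ± 0.857 CPM (fold 1.08, interval 0.746 to 1.56).

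Of the CYP3-like genes, cyp-13A10 (II: 9660839 to 9662884) was separate between groups. It had 2.20, 1.61, 2.28 and 1.96 CPM with ethanol and 3.24, 2.67, 2.49 and 3.29 CPM under 5-Ph-IAA (log2 0.55, SE 0.269, unadjusted p = 0.0514, edgeR adjusted p = 0.999). Of the other members of the subfamily that were tested, cyp-13A2 had a log2 fold change of 0.35 and cyp-13A5 one of 0.17, and neither passed. That of cyp-13A5 turned to -0.39 without 5-Ph-IAA replicate 1, where it stood at 3.24 CPM against 0.786 to 1.40 CPM in the other 3. This gene, cyp-13A5, lies outside the naming rule and was chosen after its values were seen. The gene cyp-25A3 was higher in 4 of 4 pairs (3.45 ± 1.07 and 4.52 ± 0.678 CPM, log2 0.39, SE 0.238). In contrast cyp-25A2 averaged 19.3 CPM in each group, with an SD of 0.999 for ethanol and 5.84 for 5-Ph-IAA. Within the 5-Ph-IAA group replicate 1 was the highest, at 27.6 CPM, against 18.8, 14.2 and 16.8 CPM in replicates 2 to 4. The folds of cyp-25A1 and of cyp-43A1, the single CYP43 gene, were 0.917 and 0.913.

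The CYP4-like gene cyp-29A4 was also highest in 5-Ph-IAA replicate 1. It had 2.89, 3.34, 2.16 and 1.96 CPM with ethanol and 5.97, 3.69, 1.57 and 3.29 CPM under 5-Ph-IAA, so that the groups overlapped in both directions (log2 0.53, SE 0.315, adjusted p = 0.999 in edgeR). Its log2 fold change was 0.16 without 5-Ph-IAA replicate 1 and 0.76 without replicate 3, the latter above the 0.57 of cyp-34A9 in the same fit. Of the 38 tested members, 8 (21.1%) were highest in 5-Ph-IAA replicate 1, against 11.4% of all tested genes, a tally chosen after the values were seen. The 8 were cyp-13A5, cyp-25A1, cyp-25A2, cyp-29A4, cyp-31A5, cyp-33C4, cyp-34A5 and cyp-34A8. For cyp-37A1, which is also CYP4-like, all 4 pairs were lower (18.4 ± 1.70 and 16.04 ± 1.71 CPM, fold 0.870, interval 0.733 to 1.03), and for cyp-42A1 the fold was 0.988 (0.697 to 1.40).

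**Figure D4:**
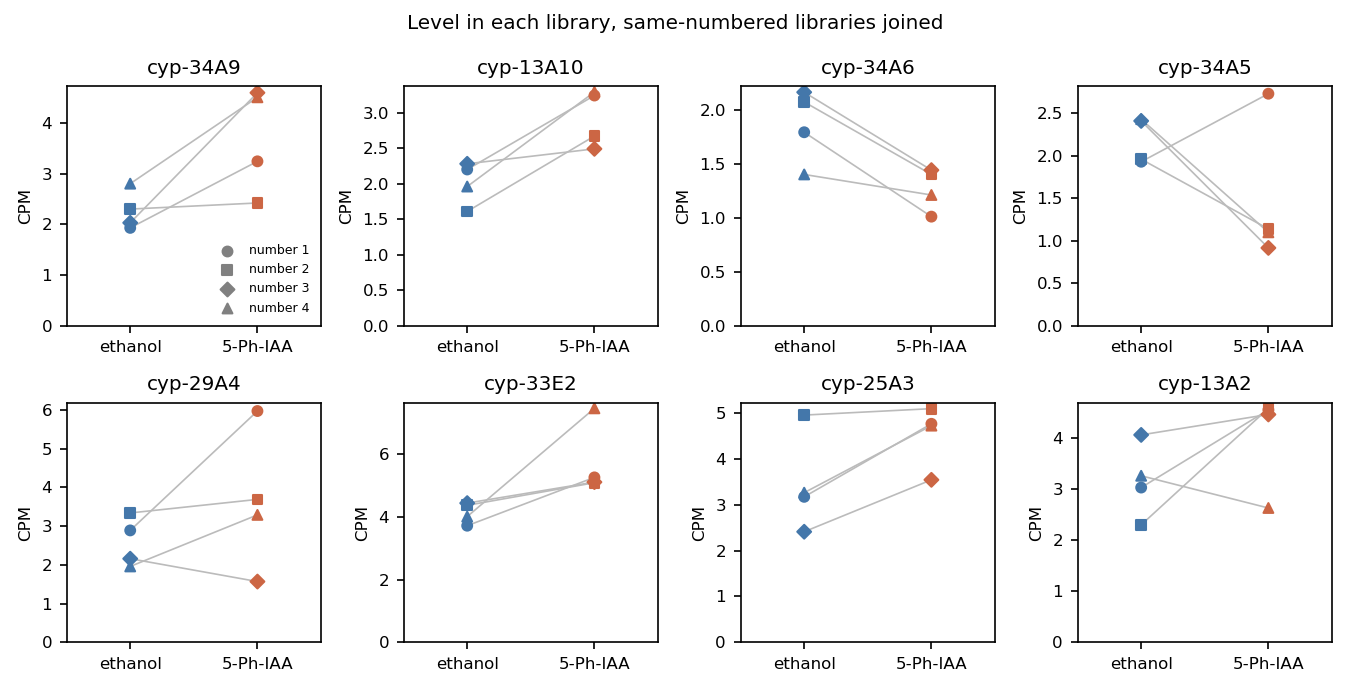
CPM in each library for the 8 tested members with the largest absolute log2 fold change, with libraries of the same replicate number joined by a line. The pairs point 1 way for cyp-34A9, cyp-13A10, cyp-34A6, cyp-33E2 and cyp-25A3 and both ways for cyp-34A5, cyp-29A4 and cyp-13A2; none of the 8 passed the test.

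The gene cyp-36A1 (I: 8341682 to 8346023), which acts downstream of HIF-1 in egg laying, had 9.09, 11.4, 15.7 and 11 CPM with ethanol and 8.60, 9.15, 8.91 and 11 CPM under 5-Ph-IAA. It was lower in 4 of 4 pairs, although both replicate 4 libraries rounded to 11 CPM. The groups overlapped (log2 -0.32, SE 0.162, unadjusted p = 0.0557, edgeR adjusted p = 0.999), and ethanol replicate 3 was the highest. Without that library the log2 fold change was -0.17. Its exons share 147 bases with figo-1 on the other strand. The CYP2-like gene cyp-14A5 averaged 35.7 ± 5.65 and 40.3 ± 1.90 CPM, with ethanol replicate 1 lowest at 27.8 CPM (fold 1.13, interval 0.982 to 1.30, log2 0.18). Without that library the log2 fold change was 0.081. With the replicate block its unadjusted p was 0.0375 (edgeR adjusted p = 0.664), and that of cyp-36A1 was 0.0455 (edgeR adjusted p = 0.708). All 4 pairs agreed in direction for 9 of the 38 tested members (23.7%), 5 higher and 4 lower, against 14.2% of all tested genes in either direction. The 4 lower include cyp-36A1 with its nearly equal pair.

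No gene that works with the P450 enzymes passed the test either. A list of 27 partners and regulators covered electron donors, steroid hormone synthesis, epoxide hydrolases, transcription regulators and heme transport, and 25 of them were tested. None passed in edgeR without or with the block, where 0.0998% and 0.732% of all tested genes passed. Without the block 2 of the 25 had an unadjusted p under 0.05, against 4.41% of all tested genes. The median log2 fold change was 0.017, and 16 of the 25 lay above 0, against 49.7% of all tested genes. The P450 reductase gene emb-8 had 146 ± 8.12 CPM with ethanol and 152 ± 8.92 CPM under 5-Ph-IAA (log2 0.051, SE 0.056). The hormone-making P450 gene daf-9 stood at 1.18 ± 0.559 and 1.43 ± 0.526 CPM (log2 0.20, SE 0.411). The next 2 genes, cytb-5.1 and wdr-23, lie outside the naming rule and were picked once their values were known. The cytochrome b5 gene cytb-5.1 had 24.8 ± 1.38 and 28.6 ± 2.55 CPM (log2 0.21, SE 0.099, edgeR adjusted p = 0.999). The gene wdr-23, whose product restrains SKN-1, had 91.6 ± 7.22 and 100.3 ± 1.89 CPM (log2 0.13, SE 0.061, edgeR adjusted p = 0.999).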

How the data were processed

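The deposited files hold whole-number counts of reads per WormBase gene, 1 file per library. FastQC 0.11.5, TopHat2, HTSeq and DESeq2 are named, without roles, per the submitters' processing notes. Genome build, annotation and strand setting: not given in the sources used here. Per the labels' protocols, 3 ug of total RNA entered each library. Lines that name no gene were left out (47.7% to 48.1% of reads were assigned to no feature, a share that can include reads on the other strand of genes if the counting used strand; 4.14% to 4.55% had several alignments). Symbols, exon lengths and 1-based coordinates came from Ensembl 115 (WBcel235). Only the symbols of the cyp pseudogenes came from RefSeq rows, of the same assembly and position. Sequences are not used here.

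Genes passing filterByExpr entered edgeR 4.0.16 (R 4.3.3, TMM factors 0.986 to 1.02, robust quasi-likelihood, two-sided, Benjamini-Hochberg over 12021 genes, threshold 0.05). The fit was also run on simulated data with the same spread for every gene and no replicate effect. That run cannot show how well changes in these members would be found. SE is the absolute log2 fold change over the square root of F, and 95% intervals use the fit's degrees of freedom. DESeq2 1.42.0 and limma 3.58.1 were alternatives. Whether libraries are separate cultures is not stated, so p-values may cover technical spread only. Replicates of a group all differed by more than sampling noise (chi-square over its degrees of freedom at least 2.52). Same-numbered libraries deviated together (correlations 0.1002 to 0.1474, each above the bar of 0.1), so the numbers were taken to pair them. The main fit nonetheless used the group alone and left this pairing out. Folds, SE, intervals and p-values are from that fit unless the replicate block is named.

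Members and lists were chosen with earlier results of these data known. Named members are the 10 highest by level per kilobase, the 8 with the largest fold change, any that passed, and 14 with known roles or single-gene families.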

Additional observations from a re-analysis of the deposited data

Results flagged for a closer look

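Among the named members and their summed level, 7 of 54 sets of 4 libraries had 1 library far from the other 3. The measure was Dixon's 95% ratio for 4 values, which by chance flags about 1 in 20 sets of normally distributed values. Sets of a few reads, such as those of cyp-14A3 and cyp-13A7, are not of that kind, so the rates are not strictly comparable. Ethanol replicate 1 was high for cyp-44A1 (61.0 CPM, next 58.5). The other 6 lay in the 5-Ph-IAA group. Replicate 1 was high for cyp-34A5 (2.73 CPM, next 1.14). Replicate 2 was low for cyp-34A8 (25.2 CPM, next 30.7) and high for cyp-14A3 (0.381 CPM from 3 reads, next 0.131 CPM from 1 read). Replicate 4 was high for cyp-33E2 (7.46 CPM, next 5.26), low for cyp-13A2 (2.63 CPM, next 4.46) and high for cyp-13A7 (0.11 CPM, a single read, with 0 in the others).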

How the results depend on the processing

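The count of 0 members past the threshold held under all 20 alternatives (2 other scalings, 2 other filters, DESeq2, limma-voom, the replicate block alone and with DESeq2, and each library or pair left out). The members at an unadjusted p under 0.05, 2 as reported, were 4 with no filter (of 69), 4 with the replicate block, 0 with that block and DESeq2, and 1 to 5 with libraries left out (4 without ethanol replicate 2, 1 without ethanol replicate 4 or 5-Ph-IAA replicate 4). With no filter 38 of 69 members lay above 0. The median log2 fold change of members ranged from -0.00966 to 0.0700 with libraries left out. Over all genes, the 12 calls became 62 with no filter, 29 with DESeq2, 88 with the replicate block and 24 with the block and DESeq2. They numbered 6 to 19 with 1 library left out (7, 7, 19 and 6 without 5-Ph-IAA replicates 1 to 4) and 51 to 92 with the block and 1 pair left out.

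Of 420 refits of 21 named members, 396 kept the direction and 24 turned it, all in 6 members near 0, and the lowest adjusted p was 0.398. For cyp-25A2 the log2 fold change was -0.0119 with limma-voom, -0.0209 with the block and -0.0327 with the block and DESeq2. With libraries left out it ranged from -0.217 (without 5-Ph-IAA replicate 1) to 0.133 for cyp-25A2, -0.0152 to 0.0143 for cyp-31A2, -0.0658 to 0.0566 for cyp-31A3, -0.0726 to 0.0149 for cyp-31A5, -0.0552 to 0.227 for cyp-29A3 and -0.0997 to 0.122 for cyp-42A1. Ranges with libraries left out that kept their direction but moved by over 1.5 times were -1.09 to -0.371 for cyp-34A5, 0.162 to 0.759 for cyp-29A4, 0.255 to 0.612 for cyp-25A3, 0.141 to 0.55 for cyp-13A2, 0.304 to 0.56 for cyp-33E2, -0.422 to -0.13 for cyp-36A1, 0.0688 to 0.265 for cyp-14A5, -0.252 to -0.128 for cyp-37A1, 0.0544 to 0.167 for cyp-34A8, -0.185 to -0.0137 for cyp-43A1 and -0.217 to -0.0108 for cyp-25A1. The cause was not tested. The same 10 members were highest under plain CPM, coding length and each library left out. Counting error is widest for the 31 scarce members, each with at most 59 reads.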
